A study of Mus musculus with 4 samples.

Results

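The islet hormone and secretory granule genes are 10 genes that endocrine cells of the pancreas use to make and store peptide hormones: Ins1, Ins2, Iapp, Gcg, Sst, Ppy, Chga, Chgb, Pcsk1 and Pcsk2. They were taken by symbol from the 38921 gene rows of the count tables, and each of the 10 had 1 row. The study cultured fibroblasts from mouse pancreas and sequenced their poly-A RNA in 4 libraries, 2 from wild type and 2 from KPC mice, to compare the fibroblasts of both genotypes. KPC names a mouse model of pancreatic cancer whose engineered alleles are switched on by Cre under the Pdx1 promoter, which is active in pancreatic epithelium, endocrine cells included. All groups shared a pancreas source, a strain given as mixed and growth in serum-containing DMEM after gravity separation. The labels state neither the alleles nor the age of the mice, and give no number of animals behind a culture. They call the libraries biological replicates, so the p-values below measure the spread between these libraries only.

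Islets are clusters of endocrine cells within the pancreas. Beta cells make insulin and amylin, alpha cells glucagon, delta cells somatostatin and PP cells pancreatic polypeptide. Each hormone is made as a precursor, packed with chromogranins into dense-core granules and cut there by prohormone convertases. Mice carry a pair of insulin genes, where most mammals have 1. Fibroblasts are not known for making these hormones.

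Counts summed to between 22302141 (wild type 2) and 68312367 (KPC 2) per library, so 1 count weighs most in wild type 2. Levels are given as CPM, the count scaled to a common library size with TMM factors, with 95% exact Poisson intervals, which cover counting error only. Where 4 values stand together they are in library order, the wild type pair before the KPC pair and replicate 1 before replicate 2 in each. The cultures carried fibroblast RNA throughout: 12 of 12 fibroblast markers had counts in every library, with a summed level of 15939 and 15963 CPM in the wild type and 14459 and 16553 CPM in the KPC libraries. Of 15 acinar markers, 4, 0, 1 and 2 were at 0 in library order, and their summed level ran from 6.58 to 10.6 CPM. Much of that sum was Cela1 (1.05, 2.19, 5.4 and 4.85 CPM) and Cela2a (3.5, 1.97, 3.4 and 2.86 CPM). Cela2a overlaps Ctrc and Casp9, and how many reads they share was not tested. Wild type 2 was highest for 6 of the 15, and another library for the rest. Among the 6 were Ctrb1 at 0.19, 2.5, 0.17 and 0.398 CPM and Prss2 at 0.038, 0.76, 0.051 and 0.177 CPM. Other cell types' markers differed between the libraries. The summed level of 15 ductal and epithelial markers was 63.3, 747, 2054 and 1502 CPM in library order. Spp1 alone made up 29.7, 309, 860 and 1050 CPM of these sums. That of 11 macrophage markers was 69.2, 245, 969 and 2047 CPM. The 10 endothelial markers summed to 930 CPM in wild type 1 and to 43.8 to 154 CPM elsewhere, and the 9 Schwann cell markers to 32 CPM there and to 4.66 to 8.45 CPM elsewhere. Of these, no list had its highest summed level in wild type 2. The 12 neuronal and chromaffin markers did, with a summed level of 523, 2952, 903 and 1307 CPM. But Syn1, whose interval overlaps that of Timp1, made up 2768 CPM of the sum in wild type 2. Wild type 2 was highest for 5 of the 12, Syn1 included, and another library for the rest. Among the 5, Uchl1 stood at 60.3, 101, 38.8 and 53 CPM. The chromaffin cell markers Th and Dbh had 1 and 3 counts (0.0447 and 0.134 CPM) in wild type 2. Wild type 1 had 5 and 25 (0.0951 and 0.475 CPM). The part of these cells in the results below was not tested.

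The islet genes stood far above their level elsewhere in 1 library, wild type 2. There the 10 genes together held 21523 counts, 0.0965% of the library, while wild type 1 held 227, KPC 1 held 113 and KPC 2 held 180, which is 0.000426%, 0.000195% and 0.000263%. All 10 were highest in wild type 2, and for all 10 the counting interval there lay above those of the other 3 libraries. The share of all rows with that order was not counted, and counting intervals leave out the spread between replicates. In RNA from whole cultures, fewer cells of a type and less RNA per cell cannot be told apart.

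**Figure D1:**
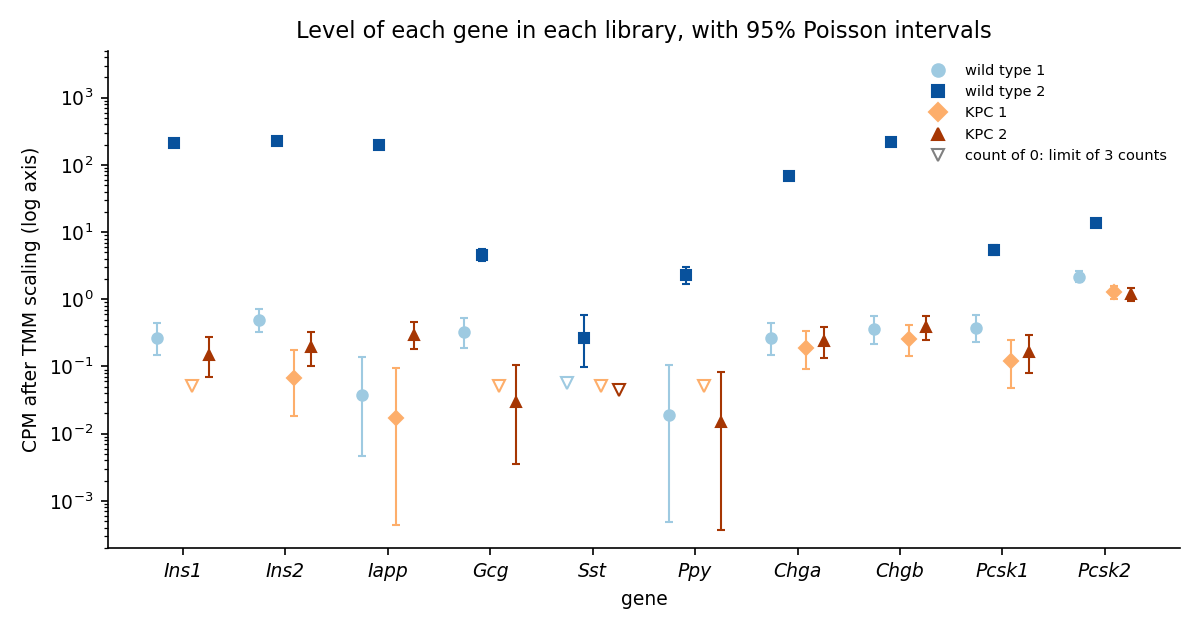
Level of each of the 10 genes (x axis) in CPM after TMM scaling (y axis, log scale), 1 point per library with its 95% exact Poisson interval; a gene at 0 is drawn at its limit of 3 counts. The points of wild type 2 lie above those of the other 3 libraries for every gene, from 0.268 CPM for Sst to 229 CPM for Ins2.

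Both insulin genes were high in wild type 2 and had at most 26 counts elsewhere. Ins2 (chr7:142678656-142699510, minus strand, mm10), the ancestral insulin gene, had 26, 5129, 4 and 13 counts in library order. These are 0.494 (0.323 to 0.724), 229 (223 to 236), 0.068 (0.0185 to 0.174) and 0.192 (0.102 to 0.328) CPM. Ins1 (chr19:52264323-52265456, plus strand), the rodent insulin gene that arose as a retrotransposed copy, had 14, 4804, 0 and 10 counts. Its level was 0.266 (0.146 to 0.447) CPM in wild type 1, 215 (209 to 221) in wild type 2 and 0.147 (0.0707 to 0.271) in KPC 2, and the count of 0 in KPC 1 allows up to 0.051 CPM. Both genes were high in wild type 2 alone, while the interval of wild type 1 overlapped that of KPC 2 for each. The ratio of wild type 2 to wild type 1 was 464 (95% interval 316 to 711) for Ins2 and 807 (480 to 1477) for Ins1. Against the KPC libraries summed, wild type 1 stood 3.68-fold (1.92 to 7.24) higher for Ins2 and 3.37-fold (1.39 to 8.49) higher for Ins1.

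The coding sequences of Ins1 and Ins2 are alike, which bears on how reads divide between their rows. Over 327 aligned coding bases (GENCODE M21, GRCm38), 302 were identical (92.4%), and the longest identical run was 56 bases. The stretch of coding bases 61 to 210, counted from the start codon, is shown for both genes, with the 7 bases that differ in capitals.
Ins1: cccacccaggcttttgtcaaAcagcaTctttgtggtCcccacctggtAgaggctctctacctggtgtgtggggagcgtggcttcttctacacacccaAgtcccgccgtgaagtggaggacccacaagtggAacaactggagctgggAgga
Ins2: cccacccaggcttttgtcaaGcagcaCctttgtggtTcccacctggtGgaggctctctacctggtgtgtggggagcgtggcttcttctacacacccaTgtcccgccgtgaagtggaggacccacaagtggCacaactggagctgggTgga
Most rows with a single count covered 37 bases, whereas the labels give reads of 50 bases, and which length was aligned was not tested. Of the 291 stretches of 37 bases in the Ins1 coding sequence, 33 (11.3%) also occur in an Ins2 transcript, and of the 1026 in the whole transcript 33 (3.22%). Of the 278 coding stretches of 50 bases, 7 (2.52%) do, a length added after the data were seen. A read from such a stretch cannot be assigned to either gene, so the split between them is uncertain to that extent. Ins1 made up 48.4% (exact Clopper-Pearson interval 47.4 to 49.4) of the 9933 insulin counts of wild type 2. Its share was 35% (20.6 to 51.7) of 40 counts in wild type 1, 43.5% (23.2 to 65.5) of 23 in KPC 2 and 0 of 4 in KPC 1. The intervals of the 3 libraries with Ins1 counts overlapped, so no difference in the insulin split was detectable at this depth.

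Iapp (chr6:142298423-142303961, plus strand) encodes amylin, the peptide that beta cells release with insulin. Its counts were 2, 4464, 1 and 20, or 0.038 (0.00461 to 0.137), 200 (194 to 205), 0.017 (0.00043 to 0.0947) and 0.295 (0.18 to 0.455) CPM. Wild type 2 was again far above the rest, but here KPC 2 came second, with an interval above those of wild type 1 and KPC 1, as for no other member. Wild type 2 stood 5247-fold (1452 to 43341) above wild type 1, a ratio that rests on 2 counts there. The interval of Iapp lies within that of Slco1a5, an organic anion transporter gene, whose row held 74, 4505, 45 and 71 counts. Without the counts of the Iapp row, 72, 41, 44 and 51 were left for Slco1a5, so its high count in wild type 2 lay almost wholly within the Iapp interval.

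In wild type 2 the hormones of the other islet cell types were far lower than those of beta cells, which did not hold for Gcg in wild type 1. Gcg (chr2:62474530-62483650, minus strand), the glucagon gene of alpha cells, had 17, 103, 0 and 2 counts. Its level was 0.323 (0.188 to 0.518) and 4.6 (3.76 to 5.58) CPM in the wild type libraries and 0.0295 (0.00357 to 0.106) CPM in KPC 2, with a limit of 0.051 CPM in KPC 1. The genotypes did not overlap for Gcg, and the wild type 1 interval lay above both KPC intervals. Wild type 2 stood 14.2-fold (8.48 to 25.4) above wild type 1, and wild type 1 stood 20.5-fold (4.86 to 183) above the KPC libraries summed, a ratio that rests on 2 KPC counts.

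Ppy (chr11:102099930-102101319, minus strand), which encodes pancreatic polypeptide, had 1, 51, 0 and 1 counts. Its level in wild type 2 was 2.28 (1.7 to 3) CPM, a ratio of 120 (20.6 to 4827) to wild type 1, which rests on 1 count. Sst (chr16:23889581-23890844, minus strand), which encodes somatostatin, a hormone that restrains insulin and glucagon release, had 6 counts in wild type 2, or 0.268 (0.0984 to 0.584) CPM, and 0 elsewhere. The count of 0 allows up to 0.057, 0.051 and 0.0442 CPM in the other libraries. With 0 set to a floor of 3 counts, in wild type 1 or over the KPC pair together, wild type 2 was at least 4.7-fold and at least 11.3-fold higher, while the counting intervals of these ratios begin at 2.77 and 6.67. Outside wild type 2, Ppy and Sst were thus at or under 1 count in every library.

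The make-up of the hormone counts differed between the libraries with enough counts to divide. Of the 14557 counts of the 6 hormone genes in wild type 2, Ins2 held 35.2%, Ins1 33%, Iapp 30.7%, Gcg 0.708% (0.578 to 0.857), Ppy 0.35% and Sst 0.0412%. Of the 60 in wild type 1, Gcg held 28.3% (17.5 to 41.4) and Iapp 3.33% (0.406 to 11.5). Of the 46 in KPC 2, Iapp held 43.5% (28.9 to 58.9) and Gcg 4.35% (0.531 to 14.8). The beta cell hormones Ins1, Ins2 and Iapp together made up 70% of the hormone counts in wild type 1, 98.9% in wild type 2 and 93.5% in KPC 2. The glucagon share of wild type 1 was thus higher than that of wild type 2 and of KPC 2, and its amylin share lower, each beyond counting error. KPC 1 had 5 hormone counts in all, too few to divide.

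**Figure D2:**
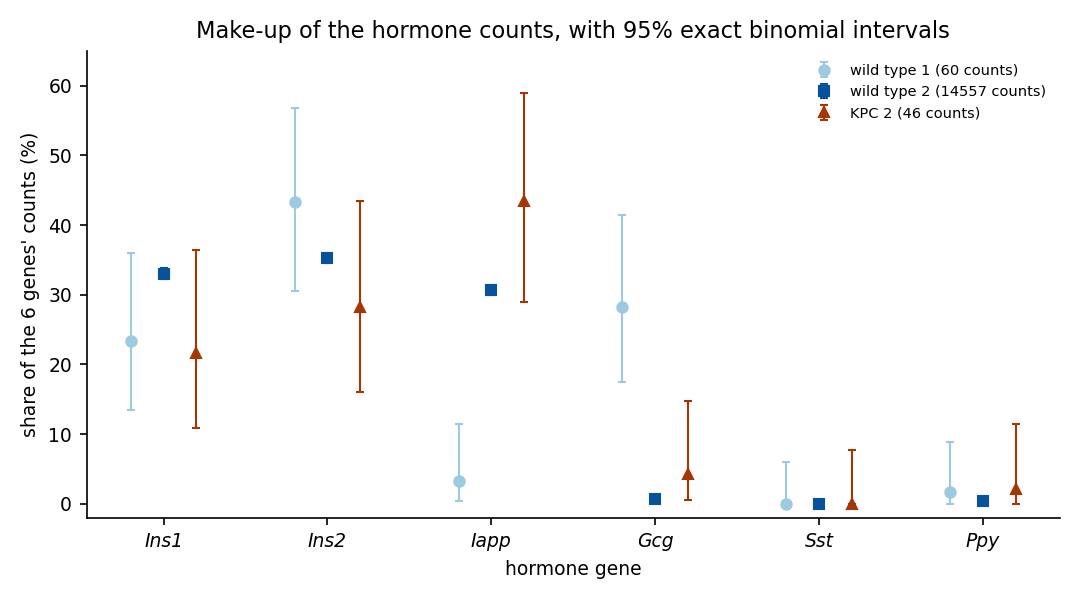
Share of each hormone gene (x axis) of the summed counts of the 6 hormone genes (y axis, percent), for the libraries with more than 5 such counts, with 95% exact binomial intervals. Gcg held 28.3% in wild type 1 against 0.708% in wild type 2, and Iapp 3.33% against 30.7%.

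Both chromogranins, the acidic proteins that pack hormones into dense-core granules, were also far highest in wild type 2. Chgb (chr2:132781278-132795079, plus strand) had 19, 4987, 15 and 26 counts, or 0.361 (0.218 to 0.564), 223 (217 to 229), 0.255 (0.143 to 0.42) and 0.383 (0.25 to 0.561) CPM. Chga (chr12:102554969-102565027, plus strand) had 14, 1555, 11 and 16, or 0.266 (0.146 to 0.447), 69.5 (66.1 to 73.1), 0.187 (0.0933 to 0.334) and 0.236 (0.135 to 0.383) CPM. The 3 libraries other than wild type 2 lay close together for both genes, and their intervals overlapped. Wild type 1 differed from the KPC libraries summed by a ratio of 1.12 (0.612 to 1.97) for Chgb and 1.25 (0.605 to 2.47) for Chga, while wild type 2 stood 617-fold (395 to 1026) and 261-fold (155 to 479) above wild type 1. Chgb held 76.2% (75.2 to 77.3) of the chromogranin counts in wild type 2. It held 57.6% (39.2 to 74.5), 57.7% (36.9 to 76.6) and 61.9% (45.6 to 76.4) in the other 3. Both KPC intervals overlapped that of wild type 2, while that of wild type 1 lay just below it.

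The prohormone convertases were less far apart between the wild type libraries than the beta cell hormones and chromogranins. Pcsk1 (chr13:75089826-75132498, plus strand), the convertase that makes the early cut in proinsulin, had 20, 122, 7 and 11 counts. Its level was 0.38 (0.232 to 0.587), 5.45 (4.53 to 6.51), 0.119 (0.0478 to 0.245) and 0.162 (0.0809 to 0.29) CPM, and wild type 2 stood 14.3-fold (8.89 to 24.3) above wild type 1. Pcsk2 (chr2:143546156-143816285, plus strand), which completes proinsulin processing and makes glucagon from its precursor, had 114, 302, 75 and 81 counts. Its level was 2.17 (1.79 to 2.6), 13.5 (12 to 15.1), 1.27 (1 to 1.6) and 1.19 (0.948 to 1.48) CPM, a ratio of 6.23 (5 to 7.79) between the wild type libraries. Pcsk2 was the member with the most counts in each library other than wild type 2. Its wild type 1 interval lay above both KPC intervals, as for Gcg and for no other member, and wild type 1 stood 1.76-fold (1.37 to 2.26) above the KPC libraries summed.

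Bases covered by at least 1 read show how widely the counts lay. In wild type 2 the covered bases came to 98.2% of the exon length of Chgb, 88.5% of Gcg, 84% of Ppy, 77.5% of Ins2 and 50.1% of Ins1. These shares give breadth alone, since depth at single bases is not in the tables used here. The tables do not say that covered bases are exonic, and those of Iapp and Chga exceeded the exon length, at 104% and 119%. Outside wild type 2 the insulin reads covered more than 1 read's length wherever a count was above 1: Ins2 covered 446, 86 and 266 bases in those 3 libraries, and Ins1 203, 0 and 222 bases.

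Pcsk2 had scattered reads outside wild type 2. Its row spans 270129 bases and covered 3378, 3087, 2402 and 2244 bases. Set against 37 bases for each count, this is 80.1%, 27.6%, 86.6% and 74.9%, so that wild type 2 had more counts on fewer bases than wild type 1. Scatter of this kind outside wild type 2 was not particular to Pcsk2: the same share was 73.7%, 73.7% and 86% for Chgb and 66.1%, 78% and 70.3% for Pcsk1. These shares would be lower at 50 bases for each count. The row also overlaps Gm12360 (16, 41, 11 and 9 counts) and C630020P19Rik (3, 12, 2 and 0), and whether its reads fell in exons or introns was not tested.

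**Figure D3:**
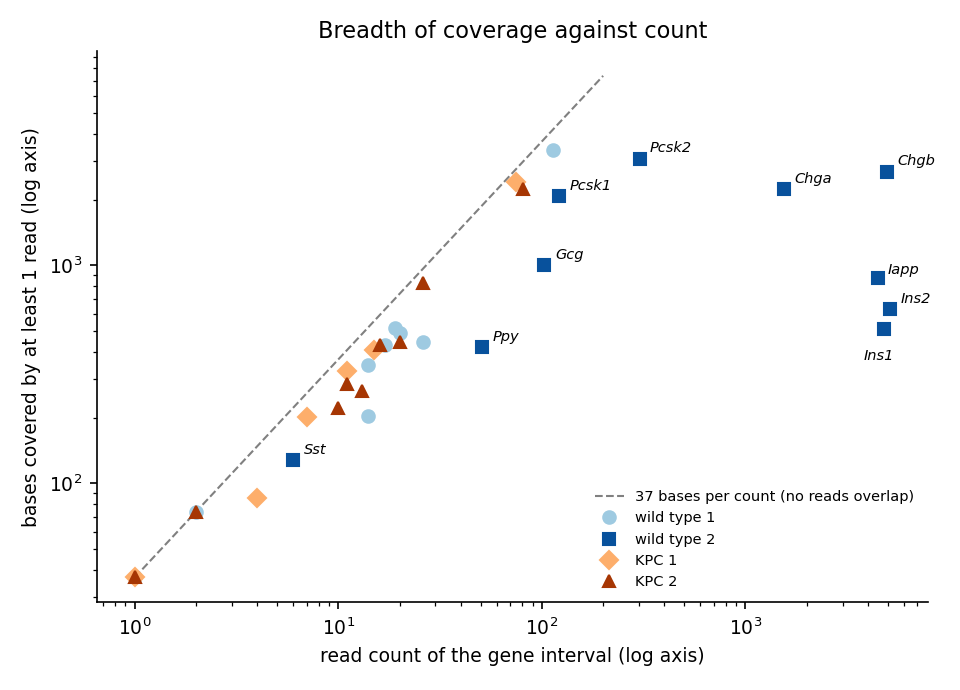
Bases covered by at least 1 read (y axis, log scale) against the read count (x axis, log scale), 1 point per gene and library with a count above 0. Pcsk2 in wild type 1 covered 3378 bases with 114 counts, whereas in wild type 2 Ins1 covered 509 bases with 4804 counts.

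Levels can be ordered between genes only per length, here as CPM per kilobase of exon. In wild type 2 the order was Ins2 at 283 (275 to 291), Iapp at 238 (231 to 245), Ins1 at 211 (205 to 217), Chgb at 81.4 (79.1 to 83.7) and Chga at 36.9 (35.1 to 38.8) CPM per kb. Below them came Ppy at 4.56 (3.39 to 6), Gcg at 4.07 (3.32 to 4.94), Pcsk2 at 2.86 (2.55 to 3.2), Pcsk1 at 2.04 (1.69 to 2.43) and Sst at 0.448 (0.164 to 0.975). The intervals of Ppy and Gcg overlapped, and all other neighbours in this order were apart in counting error. In wild type 1 the highest were Ins2 at 0.61 (0.399 to 0.894) and Pcsk2 at 0.459 (0.379 to 0.551) CPM per kb, which overlapped. Thus beta cell hormones and chromogranins led in wild type 2, and Pcsk2 stood level with insulin in wild type 1.

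Between the genotypes, the islet genes stood lower in KPC, but none passed the test, and the difference was carried by wild type 2. The edgeR quasi-likelihood test with Benjamini-Hochberg adjustment called 0 of 23046 rows (0%), members included, at an adjusted p under 0.05. At an unadjusted p under 0.05, 1090 rows were higher in KPC (4.73%) and 909 lower (3.94%). DESeq2 called 627 rows (2.72%), 5 of them members, and limma voom called 0. The log2 fold change of KPC against wild type was -10.39 ± 3.48 (SE) for Ins1, -9.73 ± 3.10 for Ins2, -9.25 ± 3.53 for Iapp and -7.04 ± 1.89 for Gcg. It was -7.34 ± 2.56 for Chga, -8.43 ± 2.93 for Chgb, -4.31 ± 1.38 for Pcsk1 and -2.65 ± 0.90 for Pcsk2. Each SE was back-calculated, as the absolute fold change without a prior count over the square root of the test's F value. The adjusted p in edgeR ran from 0.459 for Gcg to 0.575 for Iapp, and the unadjusted p from 0.0134 to 0.0491.

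Sst and Ppy did not pass the filter on low counts. Of the 8 that did, only Ins2, Chga, Chgb and Pcsk2 had 2 libraries at the filter's minimum besides wild type 2; the others passed through that library, so the 8 are not a fair sample of the 10. Their median log2 fold change of -7.88 stands beside -0.01 over all rows tested and is a description only. KPC 1 was at 0 for Ins1 and Gcg, so their KPC level rests on the 10 and 2 counts of KPC 2. DESeq2 gave -10.52 and -7.33 for these genes. With KPC 2 left out, edgeR gave -15.24 and -9.76, values that depend on the prior count.

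Without wild type 2 the log2 fold change shrank to -1.76 for Ins1, -1.89 for Ins2, -0.32 for Chga, -0.17 for Chgb, -1.41 for Pcsk1 and -0.81 for Pcsk2. That of Iapp turned to 2.02, and that of Gcg moved to -4.20 with an edgeR adjusted p of 0.172. Wild type 1 was then the lone library of its group, so the KPC pair alone gave the spread, and the Gcg value rests on 17 counts against 0 and 2. Without wild type 1, edgeR called Ins2 (-10.72, adjusted p = 0.0158), Chga (-8.34, 0.0127) and Chgb (-9.42, 0.0127), among 5 of 23978 rows (0.0209%). The spread then came from the KPC pair alone, and the lone wild type library is the one in which the members had been seen to be high. DESeq2 on all 4 libraries called Ins2 (adjusted p = 0.00682), Gcg (0.000877), Chgb (0.0328), Pcsk1 (0.0123) and Pcsk2 (0.0474). The size of the genotype difference in the beta cell hormones and chromogranins thus came from 1 library.

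**Figure D4:**
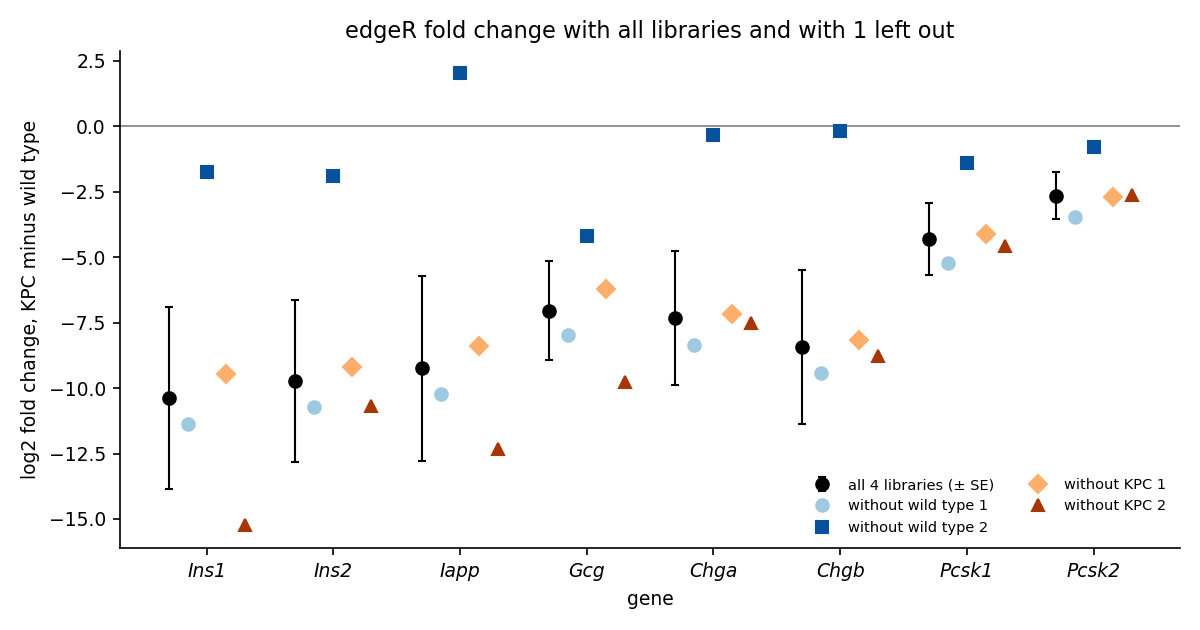
Log2 fold change of KPC against wild type from edgeR (y axis) for the 8 tested genes (x axis), with all 4 libraries and with each library left out. Without wild type 2 the value of Chgb moved from -8.43 to -0.17 and that of Iapp from -9.25 to 2.02; values with KPC 2 left out depend on the prior count where KPC 1 was at 0.

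Counted library by library, both KPC libraries lay below both wild type libraries for 7 of the 10 genes: Ins1, Ins2, Gcg, Ppy, Chga, Pcsk1 and Pcsk2. Of all rows tested, 20.5% had that order. For Ppy it rested on 1 count against 0 and 1, and for Chga on 0.266 against 0.236 CPM. Iapp, Sst and Chgb did not have it. A second count asked for at least 8 times the level of each other library and at least 50 counts in wild type 2. It was met by Ins1, Ins2, Iapp, Gcg, Ppy, Chga, Chgb and Pcsk1, of which all but Ppy were among the rows tested. Among all rows tested, 18 met it (0.0781%), 7 of them members.

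The other 11 of those 18 rows were Slco1a5, which holds Iapp, 5 genes of the islet lists described below (Cck, Pcsk1n, Scg2, Scg3 and Resp18), and Lcn2, Lrg1, Gc, Serpina10 and Gal. Likeness was measured as the distance of a row's log2(CPM + 0.05) profile over the 4 libraries, centred on its mean, from the members' median profile. Of 19667 rows ranked, the nearest 10 were Slco1a5 (0.42), Pcsk1n (1.43), Pyy (1.79), Scg2 (2.3), Lcn2 (2.31), Serpina10 (2.99), Tmem27 (3.01), Resp18 (3.37), Scg3 (3.47) and Gal (3.69). The members' own distances ran from 0.568 for Chga to 4.15 for Pcsk2. With 4 libraries this likeness describes little more than a high value in wild type 2.

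Other genes of the granule included a set seen mainly in wild type 2 and a set seen everywhere. Some fell in neither, such as Scg5 at 3.31, 9.34, 3.16 and 2.9 CPM and Vgf at 1.45, 8.94, 3.3 and 7.6 CPM. Of 24 genes of granule cargo, processing and exocytosis, all tested, 0 passed the edgeR test, 4 had an unadjusted p under 0.05 in the lower direction (Scg3, Pcsk1n, Cpe and Cplx2), and the median log2 fold change was -0.31. Pcsk1n, a granule protein that inhibits PCSK1, stood at 0.666, 30.9, 0.102 and 0.118 CPM. Scg2, secretogranin II, stood at 0.019, 22.2, 0.221 and 0.059 CPM. Scg3, which ties chromogranin A to the granule membrane, stood at 0.685, 8.99, 0.459 and 0.516 CPM, and the granule protein gene Resp18 at 0.152, 5.41, 0.357 and 0.0737 CPM. These 4 followed the members in being high in wild type 2 alone.

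The 4 genes of the list with the most counts did not. Cpe, carboxypeptidase E, which trims the cut hormones and is also made outside endocrine cells, had levels of 672, 358, 200 and 149 CPM (log2 fold change -1.56 ± 0.37, edgeR adjusted p = 0.412). Pam, which amidates peptides, stood at 471, 288, 359 and 316 CPM. Its interval overlaps that of Gm3531 (8254, 3515, 11980 and 11282 counts), and how many reads both rows share was not tested. Ptprn, a granule membrane protein, stood at 87.6, 111, 102 and 84.7 CPM, and Cadps, a priming factor for granule release, at 83.5, 95.8, 80.7 and 91.6 CPM. Their levels in wild type 2 were within or near the range of the other libraries.

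Beta cell transcription factors and nutrient sensors were low in every library, wild type 2 included. Of 20 islet transcription factor genes, 13 were tested, 0 passed, 3 had an unadjusted p under 0.05 in the lower direction (Pax6, Nkx2-2 and Isl1) and 1 in the higher, with a median log2 fold change of -0.32. Wild type 2 was highest for 8 of the 20. None reached 8 times the other libraries with at least 50 counts in wild type 2, though Neurod1, at 0.019, 0.671, 0.034 and 0 CPM, did so on 15 counts. Pdx1, the master regulator of pancreas and beta cells, had 3 counts in wild type 2; wild type 1 had 0, KPC 1 had 4 and KPC 2 had 177 (2.61 CPM). Mafa, an activator of insulin transcription, was at 0 in wild type 2, and Nkx6-1 stood at 0.894 CPM there. Pax6, which islet cells need, had levels of 0.666, 0.983, 0.085 and 0.059 CPM, with no overlap between the genotypes. Its log2 fold change was -3.46 ± 0.49 (edgeR adjusted p = 0.214).

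Among the transcription factor genes with the most counts, Isl1 stood at 4.62, 2.64, 2.06 and 1.41 CPM, St18 at 4.43, 3.4, 3.65 and 3.33, and Hhex at 5.34, 0.983, 2.41 and 2.02. None of these 3 was highest in the library with the hormone counts. Foxa2, a regulator of endoderm genes, had 0, 0.626, 6.49 and 0.221 CPM. Foxa2 in KPC 1 and Pdx1 in KPC 2 were the rows of this list that reached 8 times every other library with at least 50 counts.

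Of 18 genes of nutrient sensing and secretion control, 9 were tested, 0 passed and 2 had an unadjusted p under 0.05, both lower in KPC (Abcc8 and Slc30a8), with a median log2 fold change of -0.46. Slc30a8, the zinc transporter of insulin granules, had levels of 1.1, 1.3, 0.272 and 0.383 CPM, and Abcc8, the sulfonylurea receptor, 0.704, 2.32, 0.323 and 0.427 CPM. The genotypes did not overlap for either. The glucose transporter gene Slc2a2 had 1 count in wild type 2, and the potassium channel gene Kcnj11 had 0. Yet 11 of the 18 were highest in wild type 2, several on few counts. G6pc2 stood at 0.152, 2.06, 0.255 and 0.192 CPM, with 46 counts in wild type 2. Sstr3 stood at 0, 0.894, 0.085 and 0.118 CPM, with 20 counts there, and Ucn3 and Gjd2 had 4 and 6. Tmem27, a membrane protein of beta cells, was the list's row most like the members, at 0.0951, 3.4, 0.102 and 0.0884 CPM. Of the 4 with the most counts, Cacna1d, a calcium channel gene, stood at 16.7, 16.1, 14.2 and 17.2 CPM, Ero1lb at 3.86, 6.53, 3.86 and 5.51 and Gipr at 1.03, 1.61, 0.867 and 2.02. The counts of the fourth, Trpm5, could not be told apart from those of Tssc4, which its interval overlaps. The interval of Cacna1d overlaps that of Dcp1a (381, 159, 453 and 462 counts), and how many reads both rows share was not tested.

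Of 10 other islet and gut peptide genes, 6 were tested, 0 passed, and 1 had an unadjusted p under 0.05 in each direction (Vip lower, Tph1 higher), with a median log2 fold change of 0.26. Pyy, peptide YY, a relative of pancreatic polypeptide, followed the members at 0.038, 4.02, 0 and 0.0295 CPM, and Cck, cholecystokinin, at 6.28, 134, 11.7 and 10.5 CPM. Npy, neuropeptide Y, was instead highest in KPC 1, at 0.228, 2.91, 26.7 and 2.24 CPM. Nnat stood at 3.23, 4.56, 7.94 and 3.32 CPM, and Tph1, which makes serotonin, at 0.0951, 0.536, 1.56 and 1.21 CPM.

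**Figure D5:**
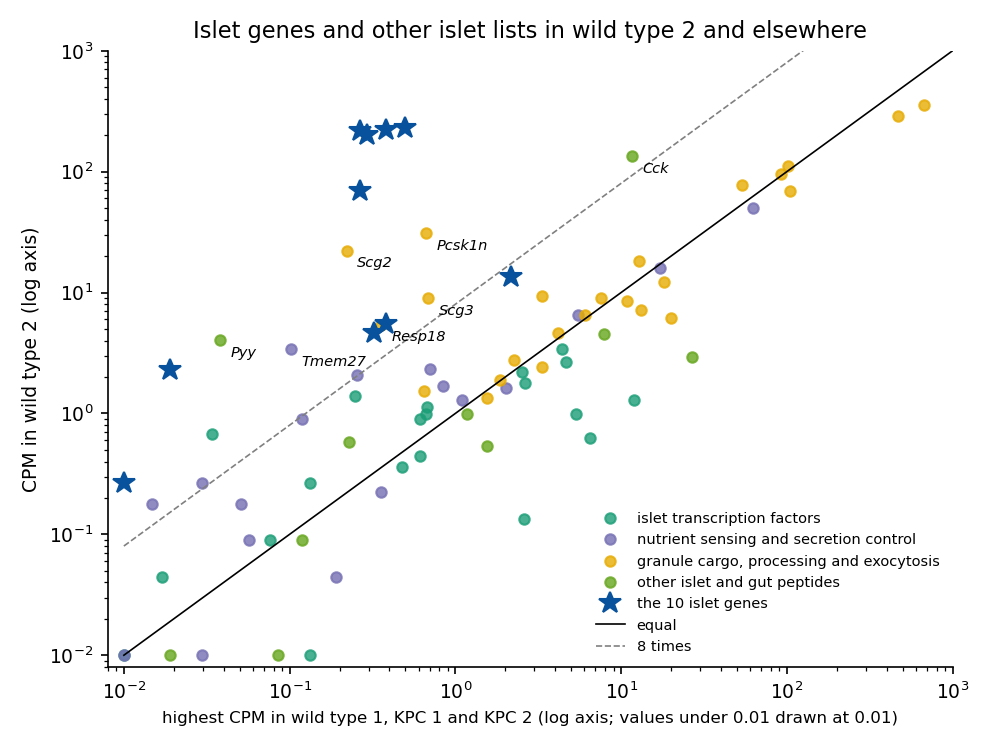
CPM in wild type 2 (y axis, log scale) against the highest CPM among wild type 1, KPC 1 and KPC 2 (x axis, log scale), 1 point per gene of the members and the 4 islet lists. The 10 members lie above the line of equal levels, as do Pcsk1n (30.9 against 0.666 CPM) and Scg2 (22.2 against 0.221 CPM), whereas Cpe lies below it (358 against 672 CPM).

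Short motifs were searched in the promoters of the members, since they were high together in 1 library. RefSeq promoter sequences (GRCm38.p6) were matched for 9 of the 10 genes, all but Ins2, and the 250 bases before each start were searched on both strands unless stated. The cyclic AMP response element TGACGTCA was found in Sst, 48 bases before the start, in Chgb at 72 and in Pcsk1 at 78, that is in 3 of 9 members and in 1.55% of 32851 promoter windows. The letters are shown in capitals with their flanks, on the gene's strand, because Sst with 6 counts in wild type 2 and Chgb with 4987 both carry them.
Sst (chr16:23890874-23890903, minus strand): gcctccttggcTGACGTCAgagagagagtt
Chgb (chr2:132781559-132781588, plus strand): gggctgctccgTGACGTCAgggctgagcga
Pcsk1 (chr13:75089768-75089797, plus strand): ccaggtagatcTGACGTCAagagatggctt
The level of these 3 in wild type 2 ran from 0.448 CPM per kb for Sst to 81.4 for Chgb. The RefSeq start of Chgb lies inside the interval of its count row.

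The letters CAGATG, read as CATCTG on the other strand, form an E box of the kind bound by NEUROD1, and TAAT, read as ATTA, is the core bound by homeodomain factors such as PDX1. The first was found in Ins1, Iapp and Gcg (3 of 9, against 14.4% of all windows) and the second in Ins1, Iapp, Gcg, Sst, Chga and Pcsk1 (6 of 9, against 54.9%). TATAAA, searched on the gene's strand, was found in Gcg and Ppy (2 of 9, against 7.59%). The stretch from 130 to 11 bases before the start is shown for the beta cell genes Ins1 and Iapp, with the E box and the TAAT or ATTA letters in capitals.
Ins1 (chr19:52264167-52264286, plus strand): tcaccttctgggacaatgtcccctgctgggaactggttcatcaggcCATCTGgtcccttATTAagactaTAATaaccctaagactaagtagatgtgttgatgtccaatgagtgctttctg
Iapp (chr6:142298295-142298414, plus strand): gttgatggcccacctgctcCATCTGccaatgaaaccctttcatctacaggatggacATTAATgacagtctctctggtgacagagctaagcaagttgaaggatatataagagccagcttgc
Ins1 and Iapp, at 211 and 238 CPM per kb in wild type 2, both hold the E box and the homeodomain core in this window. Gcg, at 4.07 CPM per kb there, also holds both between 130 and 11 bases before its start. Neurod1 itself had 1, 15, 2 and 0 counts in library order. These matches describe the letters only, and binding was not measured.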

How the data were processed

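Per the labels' protocols, poly-A RNA was read from 1 end. Tools named in the submitters' processing notes are TopHat2 2.0.3, SAMtools 0.1.18, FastQC 0.10.1 and bedtools. The bedtools version is not given in the sources used here. Positions are in mm10 (GRCm38). The authors deposited a table per library whose rows, 1 for each gene interval, hold a read count, how many bases were covered, how long the interval is and which fraction of it was covered. That counts are raw was read from their values. Reads in introns and in overlapping genes may be included, and strand was not given.

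All 4 libraries were fitted in edgeR 4.0.16 (R 4.3.3): filterByExpr with a minimum count of 10, TMM factors (0.988 to 1.02), quasi-likelihood test, two-sided, Benjamini-Hochberg over 23046 rows. limma 3.58.1 and DESeq2 1.42.0 were alternatives, beside other scalings, filters and thresholds, a replicate block and leaving out each library. Scripts were tested on simulated data. Replicates differed by a chi-square per row of 142 (wild type) and 75.2 (KPC), so none repeated another. Ratios against 0 used a floor of 3 counts.

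The members, the 11 lists of pathway genes and markers (156 of 157 entries had a row) and the tests were chosen with earlier results of these data known. The text names all members, up to 4 genes with the most counts per pathway list, those at 8 times each other library with 50 counts, and the 10 rows nearest to the members. Other genes of the lists (such as Pax6, Slc30a8, Abcc8, Mafa, Slc2a2 and Neurod1) were named after their values were seen. Some genes that the rule took are left out of the text.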

Additional observations from a re-analysis of the deposited data

How the results depend on the processing

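With 2 libraries a group, 1 of which held nearly all the islet counts, each library's own level and interval is firmer than any genotype difference. The 4 libraries' levels moved by less than their counting intervals under other scalings. Against 0 rows and 0 members called in edgeR, DESeq2 called 627 rows and 5 members. Of the 8 members with an unadjusted p under 0.05, a filter of 1 CPM in 2 libraries left 1 (Pcsk2, the only member tested, so the median log2 fold change was -2.66), limma voom left 1 and the fit with a replicate block left 5. The deviations of replicate 1 from its group mean on log2 CPM correlated at 0.136 between the genotypes over 23046 rows. Libraries with the same number share only that number. Leaving out 1 library at a time gave 0 to 835 rows called (5 without wild type 1, 835 without wild type 2), 0 to 3 members called, 0 to 9 members with an unadjusted p under 0.05 and a median log2 fold change of -8.77 to -1.11. The log2 fold change of Iapp ran from -12.31 to 2.02 in these fits, the latter without wild type 2. The causes were not tested. Of the members' fold changes under the alternatives, 8 passed the threshold that the reported fit missed, and 1 reversed.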

Other observations

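Several rows outside the islet lists were also at least 8 times higher in wild type 2 than in each other library. Lcn2, which encodes the secreted iron-siderophore binding protein lipocalin 2, had 15, 2015, 33 and 122 counts in library order, or 0.285, 90.1, 0.561 and 1.8 CPM. Lrg1, a secreted acute-phase glycoprotein, had 16, 125, 31 and 24 counts, or 0.304, 5.59, 0.527 and 0.354 CPM. Each is a description of these 4 libraries, chosen after the values were seen.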
